A study of Mus musculus with 6 samples.

Results

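Granule neurons are the principal cells of the dentate gyrus, the region through which cortical input enters the hippocampus. Their mossy fibre axons contact hilar mossy cells and CA3 pyramidal neurons. Inhibitor-1, encoded by Ppp1r1a, is enriched in these cells. Once phosphorylated by protein kinase A it restrains protein phosphatase 1, so its loss removes a brake on that enzyme. The genes described here are 9 markers of dentate granule neurons: Prox1, C1ql2, Dsp, Tdo2, Lct, Calb1, Npnt, Glis3 and Pdyn. Their members were taken as every probe set that the platform annotation assigns to exactly 1 of these symbols, which gave 22 of the 45101 probe sets on the array.

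Total RNA of hippocampus was measured on 6 one-colour Affymetrix arrays, 3 from wild-type mice and 3 from inhibitor-1 knock-out mice. The labels give tissue, genotype and a replicate number. Strain, sex, age and the design of the null allele are not among them. Nor do they say that the 3 arrays of a group are 3 animals, so the p-values here cover array-to-array spread that could be technical. The comparison asks whether markers of granule neurons change in level when these cells lack inhibitor-1. In whole hippocampus, fewer granule cells and less RNA per granule cell cannot be told apart.

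None of the 9 genes differed between knockout and wild type past the threshold, and the loss of Ppp1r1a in the same RNA was not accompanied by a called change in any granule neuron marker. Prox1 and C1ql2, the genes that mark these cells, had probe sets of moderate to bright signal on all 6 arrays. Lct and 1 probe set of Dsp had higher values on every knockout array than on any wild-type array. Groups without overlap thus made up 11.1% of the 18 tested member probe sets, near the 9.88% of all tested probe sets. C1ql2 had the opposite sign, with a log2 change of -0.15. Across probe sets the changes were small and mostly above 0, with a median log2 change of 0.23. That median was 0.05 without knockout replicate 2 and 0.14 without wild-type replicate 3. With the dimmest 60% of probe sets left out it was 0.08.

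Of the 22 probe sets, 18 passed the filter on low values and were tested, and each gene kept at least 1. The filter left out the dimmest 40% of probe sets by mean over all arrays, which corresponded to a mean log2 value of 8.44, or an intensity of about 332. Values were tested as log2(intensity + 16) with limma over 27022 probe sets, two-sided, with Benjamini-Hochberg adjustment over all of them. Past an adjusted p of 0.05 lay 3 of the 27022 (0.0111%), all lower in knockout: Ppp1r1a itself, Slc38a1 and Pou6f1. Without knockout replicate 1 there were 2 higher and 3 lower, and a replicate block gave 7 higher and 4 lower. Ppp1r1a, Slc38a1 and Pou6f1 lie on chromosome 15, which carries none of the granule neuron markers. Of the 18 member probe sets 0 passed, and 0 had an unadjusted p under 0.05, beside 4.38% of all tested probe sets. The lowest limma p of a member was 0.0723 before adjustment, and the lowest adjusted p was 0.988. With another variance model, weighting or set of arrays, the lowest adjusted p of a member was 0.451.

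Ppp1r1a, the check of the genotype, read 9061, 8370 and 10345 on wild-type replicates 1 to 3 and 272, 249 and 347 on the knockout arrays. Every knockout array thus matched its label. The arrays had equal trimmed means, and the median intensity ran from 542 to 666 with the lowest value of each group on replicate 1. Beta-actin signal at the 3′ end over that at the 5′ end, a measure of RNA integrity, ranged over 1.24 to 1.30 on wild-type arrays and over 1.18 to 1.21 on knockout arrays, with no overlap. The same ratio for Gapdh overlapped, at 0.809, 0.845 and 0.880 in wild type and 0.829, 0.823 and 0.821 in knockout. The part of RNA integrity in the results below was not tested.

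Prox1, a homeobox transcription factor that sets and maintains granule cell identity, was read by 3 probe sets. The brightest, 1437894_at, read 1531, 1878 and 1541 in wild type and 1315, 2626 and 1504 in knockout. Knockout replicate 2 was the highest of the 6 arrays and knockout replicate 1 the lowest, so the groups overlapped. The log2 change was 0.08 (SE 0.24, 95% interval -0.46 to 0.61). Probe set 1421336_at read 1285, 873 and 985 in wild type and 1067, 1303 and 1027 in knockout. Its log2 change was 0.12 (SE 0.22, 95% interval -0.37 to 0.61). Probe set 1457432_at read 786, 716 and 1219 in wild type and 1126, 1205 and 1341 in knockout. Here 2 wild-type arrays lay below all knockout arrays, while wild-type replicate 3 fell among them. At 0.46 (SE 0.24, 95% interval -0.07 to 1.00), its log2 change was the largest of the Prox1 probe sets, with a limma adjusted p = 0.988.

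C1ql2 encodes a secreted C1q-like protein of mossy fibre synapses. Its only probe set, 1444687_at, read 7931, 8000 and 7638 in wild type and 6467, 7853 and 7034 in knockout. Wild-type arrays were close together, and knockout replicates 1 and 3 lay below all of them while replicate 2 did not. The group means were 7857 ± 192 (SD, n = 3) and 7118 ± 697 (SD, n = 3), a log2 change of -0.15 with an SE of 0.09 (limma adjusted p = 0.988). The 95% interval ran from -0.35 to 0.06, so the bounds were 0.783 and 1.04 of the wild-type level. Prox1 and C1ql2, which define the cell type, thus had changes of opposite sign, neither of which passed. For the brightest Prox1 probe set that sign rested on 1 array. With knockout replicate 2 left out, both it and C1ql2 were at -0.22. Prox1 1421336_at was then at 0.02 and 1457432_at at 0.47.

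**Figure D1:**
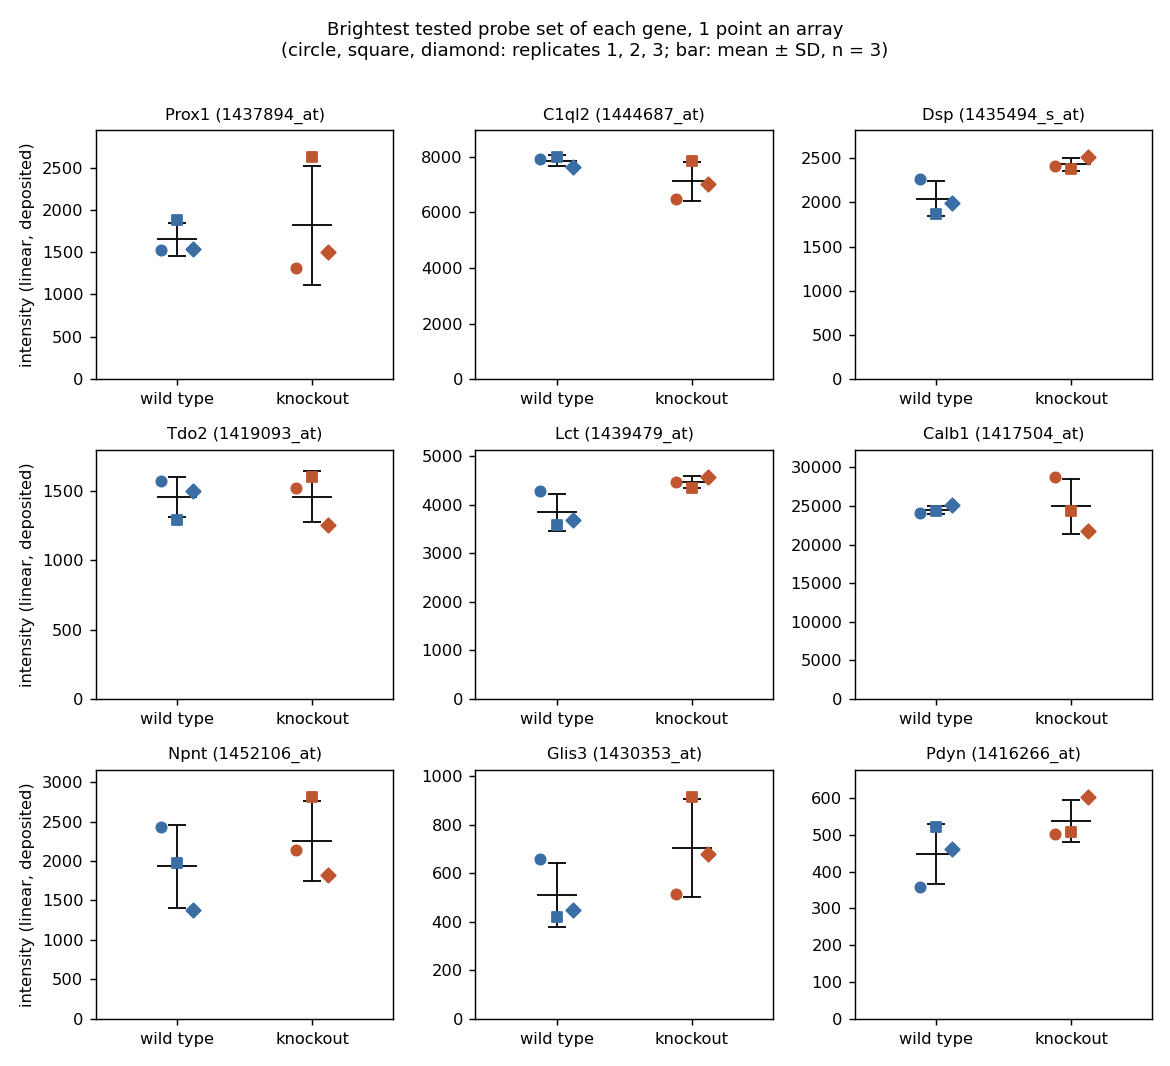
Deposited intensity (linear scale, from 0) of the brightest tested probe set of each of the 9 genes, with 1 point for each array and the mean ± SD of 3 arrays in each group. The groups overlapped for 7 genes, and all 3 knockout arrays lay above all 3 wild-type arrays for Lct and for this probe set of Dsp. Of all tested probe sets, 9.88% had groups without overlap.

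Dsp encodes desmoplakin, which anchors intermediate filaments at desmosomes and in hippocampus marks granule cells. Its probe set 1435494_s_at read 2266, 1872 and 1989 in wild type and 2412, 2371 and 2514 in knockout. Every knockout array lay above every wild-type array. The log2 change was 0.25 (SE 0.14, 95% interval -0.05 to 0.56), and the limma adjusted p was 0.988. The other Dsp probe sets had changes below 0. Probe set 1435493_at, designed on the same source sequence as 1435494_s_at, read 2278, 2327 and 1393 in wild type and 1815, 1796 and 1820 in knockout, a log2 change of -0.10 (SE 0.20). Its knockout arrays agreed closely and lay between the wild-type ones. Probe set 1427610_at read 1033, 613 and 797 in wild type and 741, 639 and 583 in knockout, a log2 change of -0.28 (SE 0.28). The Dsp probe sets thus spanned 0.54 on the log2 scale and gave no common direction.

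Lct encodes lactase, the intestinal disaccharidase, whose transcript also labels granule cells. Its only probe set, 1439479_at, read 4279, 3576 and 3679 in wild type and 4475, 4334 and 4574 in knockout. Every knockout array lay above every wild-type array, with wild-type replicate 1 close below. The means were 3844 ± 380 (SD, n = 3) and 4461 ± 121 (SD, n = 3), a log2 change of 0.22 (SE 0.11, 95% interval -0.02 to 0.46). It had the lowest limma p of the 18, and its limma adjusted p was 0.988. The upper bound of the interval was 1.37 times the wild-type level.

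Groups without overlap were thus found for 2 of 18 tested member probe sets (11.1%), both higher in knockout. The background was 9.88% of all tested probe sets, 4.97% higher and 4.91% lower in knockout, so the members' share was near it. For either of the 2, an exact permutation test of 3 against 3 arrays can give no two-sided p below 0.1.

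Calb1 encodes calbindin, a calcium buffer of mature granule cells that CA1 pyramidal cells and some interneurons also express. Its brightest probe set, 1417504_at, read 24116, 24359 and 25094 in wild type and 28790, 24372 and 21761 in knockout. The knockout arrays lay on both sides of the wild-type ones and spread more widely, at 24974 ± 3553 (SD, n = 3) against 24523 ± 509 (SD, n = 3). The log2 change was 0.02 (SE 0.09, 95% interval -0.19 to 0.22), among the narrowest intervals of the 18. Probe set 1448738_at read 1361, 1544 and 1148 in wild type and 2179, 1161 and 1879 in knockout, a log2 change of 0.32 (SE 0.24). On it, knockout replicates 1 and 3 were above all wild-type arrays and replicate 2 was not. The change at probe set 1456934_at was -0.03 on the log2 scale (SE 0.18), with values of 1339 to 1855 on wild-type arrays and 1489 to 1750 on knockout arrays. Probe set 1458836_at was dim, at 384 to 716 on wild-type arrays and 394 to 945 on knockout arrays, with a log2 change of 0.25 (SE 0.38).

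Tdo2 encodes a tryptophan dioxygenase that starts the kynurenine pathway and is found in mature granule cells. Probe set 1419093_at read 1574, 1291 and 1500 in wild type and 1522, 1602 and 1251 in knockout. The group ranges nearly coincided, with a log2 change of 0.001 (SE 0.18, 95% interval -0.40 to 0.40). Probe set 1449337_at, from the same source sequence, lay near the filter level and read 347, 202 and 390 in wild type and 339, 332 and 670 in knockout. Its log2 change of 0.47 (SE 0.43) was the highest of the 18 and had the widest error. Knockout replicate 3 alone was above the wild-type arrays there.

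Npnt encodes nephronectin, an extracellular matrix ligand of integrins. Probe set 1452106_at read 2435, 1979 and 1383 in wild type and 2138, 2816 and 1820 in knockout, with overlapping groups and a log2 change of 0.24 (SE 0.22). Probe set 1452107_s_at read 876, 784 and 547 in wild type and 1216, 746 and 947 in knockout, a log2 change of 0.39 (SE 0.28, 95% interval -0.22 to 1.00). Wild-type replicate 3 was the lowest of the 6 arrays on both.

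Glis3 encodes a zinc finger transcription factor. Its only probe set, 1430353_at, read 660, 419 and 447 in wild type and 513, 916 and 681 in knockout. Knockout replicates 2 and 3 were the highest, and wild-type replicate 1 was above knockout replicate 1. The log2 change was 0.44 (SE 0.32, 95% interval -0.27 to 1.16).

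Pdyn encodes prodynorphin, the precursor of dynorphin opioid peptides, which granule cells store in mossy fibre terminals. Its only probe set, 1416266_at, read 359, 521 and 461 in wild type and 503, 507 and 603 in knockout. Wild-type replicate 2 lay above 2 of the knockout arrays, so the groups overlapped. The log2 change was 0.27 (SE 0.31, 95% interval -0.42 to 0.96), and the probe set was dim.

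The remaining 4 probe sets were left out by the filter and were not tested. These were 3 of the 5 of Npnt and 1 of the 3 of Tdo2. Tdo2 probe set 1455770_at read 124 to 178 on wild-type arrays and 33.4 to 284 on knockout arrays. Npnt probe sets 1426560_a_at, 1426561_a_at and 1421429_a_at read 163 to 416, 22.2 to 386 and 19.5 to 26.0 in wild type. The knockout values were 263 to 676, 304 to 349 and 24.4 to 57.4 in the same order. All 4 overlapped between groups.

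**Figure D2:**
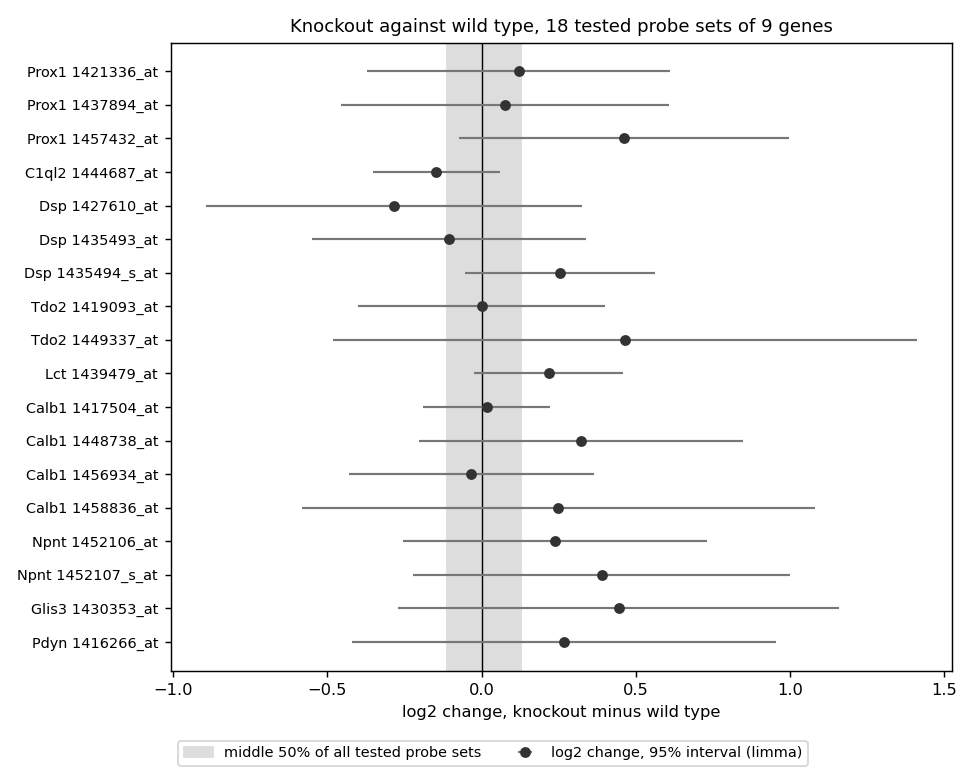
Log2 change (knockout minus wild type) with its 95% interval from limma for the 18 tested probe sets of the 9 genes, over the middle 50% of changes of all 27022 tested probe sets (grey, -0.11 to 0.13). Every interval holds 0, and 14 of the points lie above 0.

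The 95% interval of every tested member held 0. For 14 of 18 it stayed within a doubling or halving (a log2 change of 1 either way), and the other 4 reached past a doubling. Across the 18 the lowest bound was -0.89 (Dsp 1427610_at) and the highest 1.41 (Tdo2 1449337_at). The widest intervals belonged to dim probe sets, and SE ran from 0.09 to 0.43. These intervals give the range of changes compatible with each probe set's values, and do not show that the genes were alike in both groups. The smallest change called in the whole table was that of Pou6f1, with a log2 change of -0.996.

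Of the 18 changes, 14 were above 0 and 4 below, and the median log2 change was 0.23. Over all tested probe sets 50.9% were above 0, the median was 0.004 and the middle 50% lay between -0.11 and 0.13. Of the members, 10 exceeded that upper quartile and 2 lay under the lower one. By brightness, the 2 members with a mean log2 value under 9 had a median of 0.37 and the 4 between 9 and 10 a median of 0.32, beside 0.02 for all tested probe sets in either band. The 7 members between 10 and 11 had a median of 0.08, beside 0.01 for all. The 2 members between 11 and 12, Dsp 1435494_s_at and Npnt 1452106_at, had a median of 0.25, again beside 0.01 for all. The 3 members above 12 were C1ql2 (-0.15), Calb1 1417504_at (0.02) and Lct (0.22), where all tested probe sets had a median of -0.007. With the dimmest 60% of probe sets left out, 11 members remained, and their median was 0.08.

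**Figure D3:**
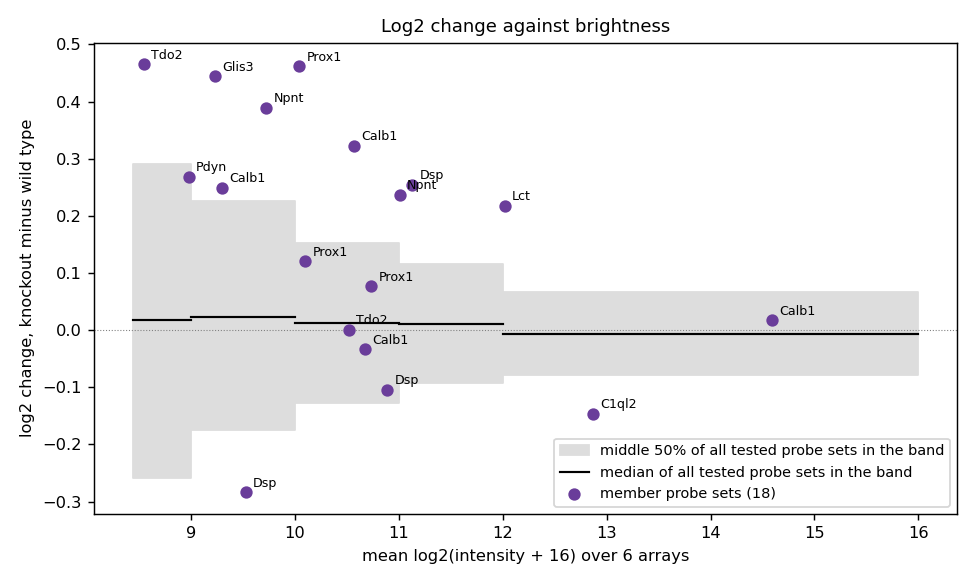
Log2 change (knockout minus wild type) of the 18 member probe sets against their mean log2(intensity + 16) over 6 arrays, with the median and the middle 50% of all tested probe sets in 5 brightness bands. The spread of all probe sets narrows with brightness, and the 3 brightest members lie at 0.22, -0.15 and 0.02.

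The median depended on the arrays used, most on knockout replicate 2 and next on wild-type replicate 3. Taking each probe set's deviation from its mean over 6 arrays, the median over the 18 was 0.04, -0.06 and -0.10 on wild-type replicates 1 to 3 and 0.05, 0.07 and 0.05 on knockout replicates 1 to 3. Without knockout replicate 2 the median log2 change was 0.05, and without wild-type replicate 3 it was 0.14. With any other single array left out it lay between 0.18 and 0.21. Over the brightest probe set of each gene, the mean deviation was 0.01, -0.09 and -0.15 in wild type and -0.01, 0.24 and 0.003 in knockout. On that measure knockout replicate 2 stood alone above the others, and the remaining knockout arrays lay close to wild-type replicate 1. Among these brightest probe sets, Prox1 1437894_at (0.63), Glis3 (0.63) and Npnt 1452106_at (0.46) were highest above their own mean on that array. Calb1 1417504_at (-0.02) was not raised there. Other tested probe sets of Prox1 and Npnt differed: Prox1 1421336_at was also highest on that array (1303), but Prox1 1457432_at (1205) and Npnt 1452107_s_at (746) were not.

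Probe sets of 1 gene are not independent readings. The 22 probe sets were designed on 15 source sequences, as far as the annotation gives one, and 5 of the 9 genes had several tested probe sets. Of those 5, Dsp and Calb1 had changes on both sides of 0. Over the whole table, 54.7% of 6208 genes with several tested probe sets had changes of both signs, and the median range within a gene was 0.22. Of the 2672 genes with 3 or more tested probe sets, 71.6% had both signs. Dsp and Prox1 had 3 tested probe sets and Calb1 had 4, while Tdo2 and Npnt had 2. The median range was not split by number of probe sets. The range was 0.54 for Dsp, 0.46 for Tdo2, 0.38 for Prox1, 0.36 for Calb1 and 0.15 for Npnt.

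Other genes known for enrichment in dentate granule cells were described with the brightest tested probe set of each gene. Of 13 such genes 12 had a change above 0 and 1 below, 0 passed in limma, 0 had an unadjusted p under 0.05, and the median log2 change was 0.08 (lowest -0.01, highest 0.25). Tiam1, an activator of Rac, had the lowest p, with values of 8970 to 10592 on wild-type arrays and 10306 to 11745 on knockout arrays. Its log2 change was 0.19 (SE 0.09, 95% interval -0.01 to 0.39, limma adjusted p = 0.988). Trpc6, a cation channel subunit, had a log2 change of 0.25 (SE 0.24). The same measure over the 9 markers gave 8 above 0, 1 below and a median of 0.22. Of the 8, Tdo2 1419093_at and Calb1 1417504_at fell below 0 with median scaling (-0.02 and -0.006). Prox1 1437894_at did so without knockout replicate 2 (-0.22).

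Genes of other hippocampal neurons were set beside these. Of 8 CA1 pyramidal neuron markers 7 were above 0 (median 0.05), with Ndst4, a heparan sulphate modifying enzyme, at 0.33 and Man1a, a Golgi mannosidase, at 0.14. Of 10 CA3 and CA2 pyramidal neuron markers 3 were above 0 (median -0.04), with Coch at 0.38 and the calcium-binding Necab2 at -0.16. Of 6 interneuron markers 1 was above 0 (median -0.13), with Sst, somatostatin, at -0.19 (SE 0.07) and Slc32a1, the vesicular GABA transporter, at -0.20 (SE 0.10). In these 3 lists 0 genes passed in limma, and Sst alone had an unadjusted p under 0.05. The limma adjusted p was 0.988 for each gene named. The differences between lists were not tested.

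Immature granule neurons and hilar mossy cells adjoin the mature granule layer. Of 6 immature neuron and progenitor genes 4 were tested, 2 above and 2 below 0, with a median of 0.04. Dcx, a microtubule protein of migrating young neurons, ranged from 2286 to 2575 on wild-type arrays and from 2647 to 2863 on knockout arrays, with no overlap. Its log2 change was 0.16 (SE 0.13), with a limma adjusted p = 0.988. Among the compared lists, Ndst4, Calcrl and Col1a2 (higher in knockout) and Sst and Slc32a1 (lower) also had groups without overlap. Of all tested probe sets, 9.88% had such groups. Sox11, a transcription factor of young neurons, had a log2 change of 0.15 (SE 0.13). Of the 3 mossy cell genes 1 was above 0 and 2 below, with a median of -0.06. Calcrl, a peptide receptor subunit, was at 0.59 (SE 0.33), Calb2, calretinin, at -0.06 (SE 0.10), and the dopamine receptor gene Drd2 at -0.16 (SE 0.38). Calb2 was on both lists, since young granule neurons also make calretinin. Of these genes 0 passed in limma, and 0 had an unadjusted p under 0.05.

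Markers of tissue that borders the hippocampus varied between arrays. All 7 choroid plexus genes and all 5 meningeal fibroblast genes passed the filter. Of the choroid plexus genes 6 were above 0, with a median of 0.59 and a mean deviation of -0.90, 0.06 and 0.06 in wild type and -0.24, 0.58 and 0.43 in knockout. The exception was Ttr, transthyretin, at -0.02 (SE 0.10), which made up 79.2% to 92.3% of the list's summed intensity on an array. The sum with Ttr ranged from 196955 to 275869 on wild-type arrays and from 217728 to 263085 on knockout arrays. The other 6 genes had log2 changes of 0.33 to 0.80, and their sum was 15164, 31774 and 33106 in wild type and 24955, 51341 and 46964 in knockout. Kcnj13, a potassium channel of that epithelium, was at 0.77 (SE 0.32) and Slc4a5, a bicarbonate transporter, at 0.80 (SE 0.35). All 5 meningeal fibroblast genes were above 0, with a median of 0.46 and a mean deviation of -0.14, -0.14 and -0.27 in wild type and -0.12, 0.38 and 0.29 in knockout. Their sum ranged from 18233 to 22415 on wild-type arrays and from 20798 to 25627 on knockout arrays. Most of that sum was Dcn, at 12101 to 17546 on wild-type arrays and 14562 to 16504 on knockout arrays. Its log2 change was 0.11 (SE 0.12), so the sum says little of the other genes. Col1a2, a fibrillar collagen chain, was at 0.54 (SE 0.17) and Ogn, a small leucine-rich proteoglycan, at 0.69 (SE 0.24). In both lists 0 genes passed in limma after adjustment, and 2 of each had an unadjusted p under 0.05. Knockout replicate 2, the array highest for the granule neuron markers, was also the highest for both lists by mean deviation. Wild-type replicate 3 was lowest for the markers (-0.15) and for the meningeal list. Other arrays differed: wild-type replicate 1 was lowest for choroid plexus (-0.90) but at 0.01 for the markers. Knockout replicate 3 was at 0.43 and 0.29 for the 2 lists but at 0.003 for the markers. The part of these tissues in the markers' values was not tested.

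**Figure D4:**
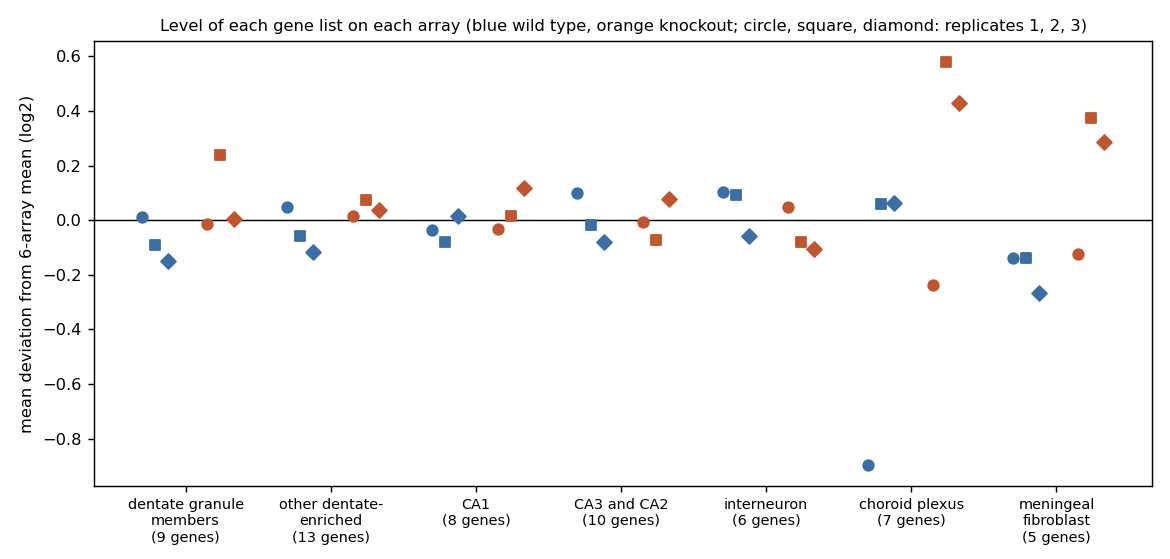
Mean deviation of each gene list drawn from its mean over 6 arrays (log2 scale, brightest tested probe set of each gene), with 1 point for each array, blue for wild type and orange for knockout. The mossy cell list and the immature neuron and progenitor list are not drawn. The granule neuron markers run from -0.15 to 0.24, with knockout replicate 2 highest, while choroid plexus genes run from -0.90 to 0.58.

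Among 7998 other genes that varied at least as much over the arrays as the mean of the 9 markers, those most like it in pattern were Ddx39a, an RNA helicase, Nbea, a neuronal trafficking scaffold, and Dhrs3, a retinal reductase. Likeness was the root mean square difference between deviations over the 6 arrays, which was 0.03 for Ddx39a, 0.04 for Nbea and 0.05 for Dhrs3 against a median of 0.25. All 3 were highest on knockout replicate 2, at 0.28, 0.26 and 0.24 above their own mean. Their log2 changes were 0.15, 0.19 and 0.08, and none passed the threshold (limma adjusted p = 0.988 or higher).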

How the data were processed

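The authors deposited 1 table for the 6 arrays, holding a linear-scale intensity for each probe set. The sources used here do not name the software that summarised the scans. The mean without the lowest and highest 2% of values was 2500 on every array, so the table had been scaled. Genes were named from the platform annotation, using probe sets with exactly 1 symbol (34958 of 45101), and chromosomes came from a RefSeq table of assembly GRCm38.p6. The 64 control probe sets and the dimmest 40% of the others were left out. Values were taken as log2(intensity + 16), so fold changes of dim probe sets are understated, and knockout was set against wild type in limma 3.58.1 (R 4.3.3) with genotype as the single term and trended empirical Bayes variances, a fit tested on simulated data. Precision is limited by having 3 arrays a group. Every member probe set is named; in each other list the 2 genes of lowest p are, with the 3 genes nearest in pattern. The members and lists were chosen with earlier results of these data known. Alternatives changed the pseudocount, the filter, the scaling, the variance model or the arrays used, weighted the arrays, or added the replicate number as a block.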

Additional observations from a re-analysis of the deposited data

How the results depend on the processing

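With every alternative run, 0 member probe sets passed, and the lowest adjusted p of any was 0.451 (limma, replicate 1 of both groups left out). Over 317 values of single members the sign changed in 17, and 12 of the 18 probe sets kept their sign throughout. The 317 include alternatives that cannot change a probe set's log2 change: the filters, the variance models and the block. Only the pseudocount, the scaling, the array weights and the arrays used could change a sign. The median log2 change of the members was 0.076 with the dimmest 60% of probe sets left out, where fewer members were tested, and ran from 0.048 (without knockout replicate 2) to 0.21 leaving out 1 array. The count of probe sets past the threshold over the whole table was 3, against 1 without the intensity trend, 11 with the replicate number as a block (7 higher and 4 lower), 14 (7 in each direction) with both replicates numbered 1 dropped, and between 3 and 5 when any single array was dropped (5 when it was knockout replicate 1, of which 2 were higher). The cause was not tested. Ppp1r1a passed in all of them. No label pairs the samples. Deviations of same-numbered samples had correlations of 0.24, 0.05 and 0.10, so only the samples numbered 1 stood out. The second wild-type array had nearly the same value, 0.04, with knockout replicate 3. For the third wild-type array the highest value, 0.11, was with knockout replicate 2. The block called 0 members. Their median stayed at 0.23, since a block balanced over the groups cannot move a log2 change. The median SE was 0.23 for the 18 members and 0.18 over all tested probe sets, so small changes could be missed. That holds for bright members too: Lct at 0.22 (SE 0.11) and C1ql2 at -0.15 (SE 0.09) had a limma adjusted p of 0.988.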
